A study of Homo sapiens with 6 samples.

Results

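The 10 transcription factors of hematopoietic stem and myeloid cells, *SPI1*, *CEBPA*, *RUNX1*, *GATA2*, *MYB*, *MEIS1*, *HOXA9*, *GFI1*, *LMO2* and *TAL1*, were followed in a myeloid leukemia cell line exposed to the small molecule S767. They were taken by symbol from a list, and all 10 were found among the 60609 Ensembl genes of the files. OCI-AML5, an established cell line from a human acute myeloid leukemia, was grown here in aMEM with 10% heat-inactivated FBS and 10 ng/mL of GM-CSF, a cytokine that drives myeloid growth, in both groups. One group (3 libraries) received DMSO, the solvent control, and the other (3 libraries) received 1 μM S767, each for 24 hours. PolyA RNA was sequenced with a stranded kit, and the question addressed here was at which level these factors were present and whether that level differed after S767. Both groups come from 1 cell line. The study describes the S767 treatment as done in triplicate without saying what was separate between the 3, so that p-values measure only the spread between these libraries, which may be technical.

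These factors bind DNA, or bridge proteins that do, and set which genes a blood cell uses. SPI1 (PU.1) and CEBPA drive progenitors toward granulocytes and monocytes, whereas RUNX1, GATA2, TAL1 and LMO2 act in stem and progenitor cells, where they share many enhancers with FLI1, ERG and LYL1. HOXA9 with its cofactor MEIS1, and MYB, sustain self-renewal of myeloid leukemia cells, and GFI1 is a repressor that favours granulocytes. In bulk RNA, fewer cells carrying a transcript and less transcript per cell cannot be told apart.

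Libraries held 149994700 to 258029564 counts in genes, so that counting error was small beside the spread between libraries for most factors (for *GATA2*, counting alone gives an SE of 0.01 on the log2 scale, against a fitted SE of 0.08). It weighed most for *MEIS1*, at 0.04 against a fitted SE of 0.09. Of the 8 genes listed as myeloid markers, 7 exceeded 1 TPM (a share of all transcripts, corrected for transcript length) on average in DMSO. Their summed level was 455 to 811 TPM in DMSO and 456 to 823 TPM in S767. The highest on that list in DMSO were *LYZ* at 368 TPM, *CD33* at 94.0 TPM and *PTPRC* at 74.5 TPM. The exception was *ANPEP*, at 0.04 TPM. The defining hemoglobin, T cell and platelet genes were at or near 0, with summed levels of at most 0.11 TPM for 8 erythroid and 0.96 TPM for 5 platelet markers in any library. The highest of these in DMSO were *SLC4A1* at 0.02 TPM, *HBB* at 0.0033 TPM, and *ITGA2B* at 0.69 TPM and *PPBP* at 0.0033 TPM, with *PF4* at 0. The 7 genes listed as non-blood markers summed to at most 3.62 TPM. The highest were *PECAM1*, which is not restricted to cells outside the blood, at 2.66 TPM, *EPCAM* at 0.14 TPM and *ALB* at 0.08 TPM. The T and B cell list reached 11.6 TPM, of which *CD79A* held most (8.85 TPM in DMSO), followed by *CD3D* at 0.48 TPM and *CD79B* at 0.14 TPM.

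All 10 factors were expressed, over a wide range of levels. In DMSO, *SPI1* was highest at 235 ± 21.7 TPM (SD, n = 3), with library values of 259, 232 and 216 TPM, followed by *MYB* at 218 ± 15.7 TPM. The libraries of *SPI1* and *MYB* overlapped. A middle group held *GFI1* at 116 ± 7.57 TPM, *CEBPA* at 110 ± 5.78 TPM, *LMO2* at 101 ± 2.29 TPM and *RUNX1* at 100 ± 5.49 TPM, and within it each neighbour in the order overlapped the next. *GATA2* at 26.1 ± 3.70 TPM and *HOXA9* at 24.9 ± 2.31 TPM also overlapped each other. *TAL1* followed at 5.03 ± 0.05 TPM, and *MEIS1* was lowest at 1.55 ± 0.27 TPM, with library values of 1.33, 1.46 and 1.85 TPM. No libraries overlapped across the steps from *MYB* to *GFI1*, from *RUNX1* to *GATA2*, from *HOXA9* to *TAL1* and from *TAL1* to *MEIS1*. *SPI1* ranked 567th and *MEIS1* 12195th by mean TPM in DMSO among the 27921 genes above 0. In S767 the order of the means was the same except that *HOXA9* (24.9 TPM) stood above *GATA2* (22.0 TPM).

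**Figure D1:**
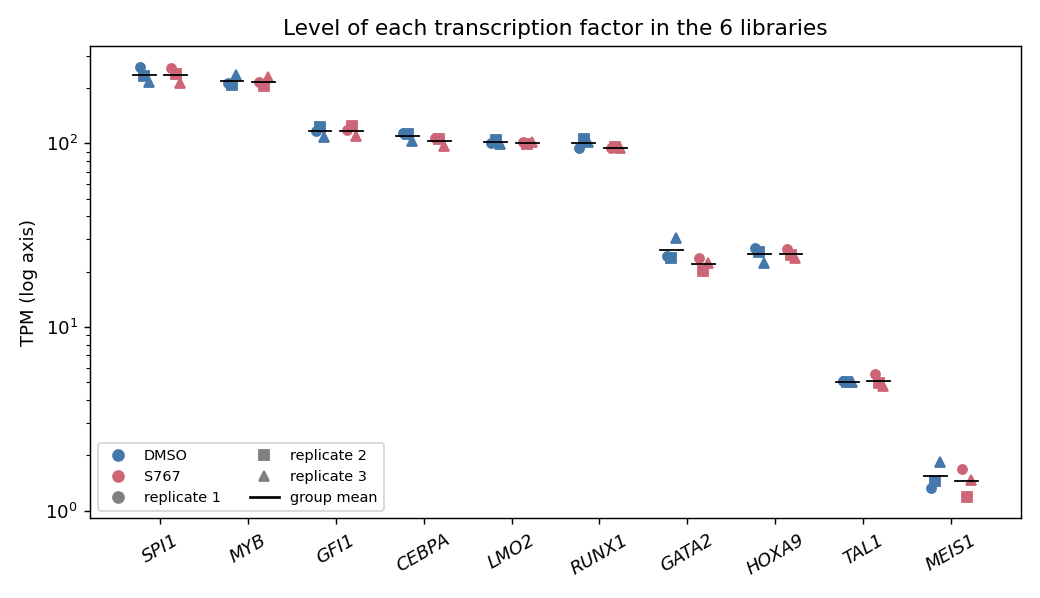
Level of the 10 transcription factors in each library, in TPM on a log axis, ordered by the DMSO mean. Points are libraries (blue DMSO, red S767, shape for the replicate number) and lines are group means. The means span from 235 TPM for *SPI1* to 1.55 TPM for *MEIS1* in DMSO, and the libraries of both treatments overlap, except for *GATA2*.

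The *HOXA9* level depends on how reads were assigned. RSEM, which the authors used for TPM, gave *HOXA9* an expected count of 157 to 164% of its strand-specific STAR count, whereas the other 9 factors had 80.7 to 98.3%. In GENCODE 29, *HOXA9* shares 397 exon bases, or 13.1% of its exons, with *AC004080.3* on the same strand, a gene listed at 0 in both tables. Its place in the order of levels is therefore given with that limit.

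The levels of these factors in S767 lay close to those in DMSO. Without regard to replicate numbers, 0 of 10 factors passed an adjusted p of 0.05 in edgeR's quasi-likelihood test, against 0.00483% of all 20725 genes tested, and 0 passed with limma-voom or DESeq2 fitted the same way. One factor, *GATA2*, had an unadjusted P under 0.05, lower in S767, where 3.53% of all genes did in either direction and 1.51% did with a lower level. The log2 fold changes of S767 against DMSO ran from -0.19 for *GATA2* to 0.05 for *TAL1*, with 5 above 0 and 5 below, where 50.2% of all genes were below 0, and their median was 0.0030, beside -0.00024 over all genes tested. Their median size was 0.04 on the log2 scale, beside 0.07 over all genes tested and 0.03 for the 6203 genes whose mean log2 CPM exceeded 5 (CPM, TMM-normalized counts scaled to a common library size), a class that does not hold *HOXA9*, *TAL1* and *MEIS1*. The summed level of the 10 factors was 923 to 954 TPM in DMSO and 895 to 950 TPM in S767.

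Libraries with the same replicate number deviated together from their group means, so S767 was also compared with DMSO within numbers (replicate block). With the block, 1 of 10 factors, *GATA2*, passed an adjusted p of 0.05, lower in S767, where 3.23% of all genes did, 1.08% with a lower and 2.16% with a higher level. In simulated counts the edgeR fit with the block made more false calls than its nominal limit, which bears on every call made with it here. The limma-voom and DESeq2 fits were not simulated. For 3 of 10 (*GATA2*, *CEBPA* and *RUNX1*) the unadjusted P was under 0.05, all lower in S767, where 16.8% of all genes did in either direction, 7.39% with a lower and 9.38% with a higher level.

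**Figure D2:**
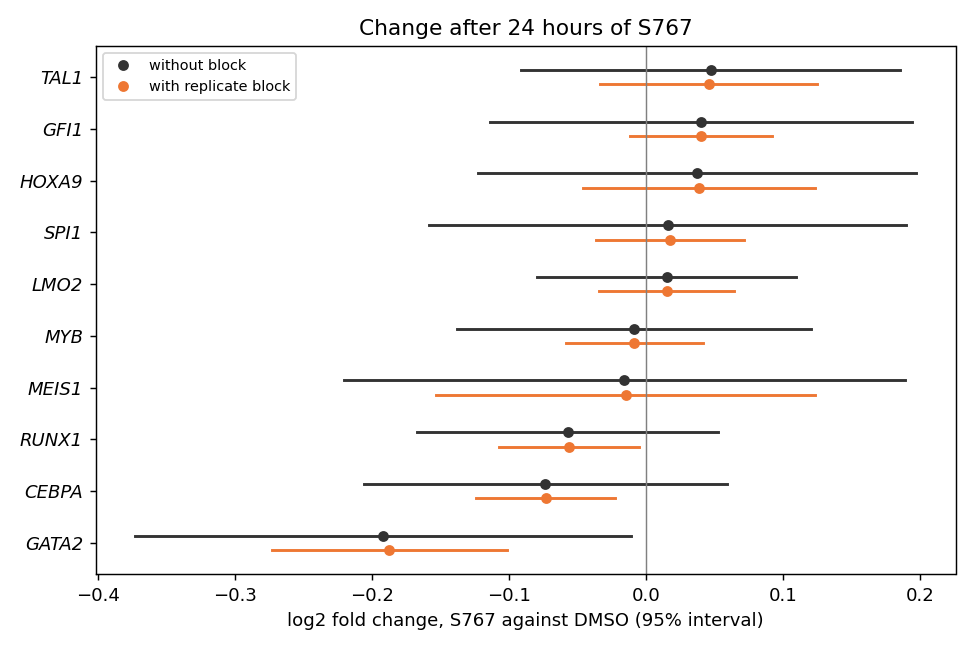
Log2 fold change of S767 against DMSO for the 10 factors, with 95% intervals from edgeR, without the replicate block (black) and with it (orange). The estimates run from -0.19 (*GATA2*) to 0.05 (*TAL1*). With the block the intervals narrow, and those of *GATA2*, *CEBPA* and *RUNX1* lie below 0.

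*GATA2* (ENSG00000179348.11, chr3:128479427-128493185 on GRCh38, minus strand, GENCODE 29) encodes a zinc finger factor required for stem and progenitor cell maintenance. Its normalized count was 45.4, 44.6 and 54.5 CPM in DMSO replicates 1, 2 and 3, and 43.2, 39.8 and 43.5 CPM in the S767 replicates. Every S767 library lay below every DMSO library, a separation in the lower direction found for 4.08% of all genes tested, and DMSO replicate 3 stood highest of the 6. The means were 48.2 ± 5.53 CPM and 42.2 ± 2.03 CPM (SD, n = 3). The exact two-sided permutation test gave p = 0.1, the smallest that 3 libraries against 3 allow. Without the block, edgeR gave a log2 fold change of -0.19 (SE 0.08, 95% interval -0.37 to -0.01), unadjusted P = 0.0401 and an adjusted p of 1.00. Within replicate numbers *GATA2* fell by 0.19 on the log2 scale (SE 0.04, 95% interval -0.27 to -0.10, adjusted p = 0.0258 with edgeR), a change of -12.2%. The log2 ratio was below 0 in each of the 3 pairs, at -0.07, -0.16 and -0.33 for numbers 1, 2 and 3.

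The value of *GATA2* depended on single libraries, and its call with the block on the pairs kept and on the counts used. Leaving out DMSO replicate 3, without the block, moved its log2 fold change to -0.09 (unadjusted P = 0.141 with edgeR). With the block, the adjusted p of edgeR was 1.62e-08 without pair 1, 0.316 without pair 2 and 0.0666 without pair 3, with log2 fold changes of -0.25, -0.20 and -0.12. On RSEM expected counts with the block the log2 fold change was -0.20 and the adjusted p 0.0559.

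**Figure D3:**
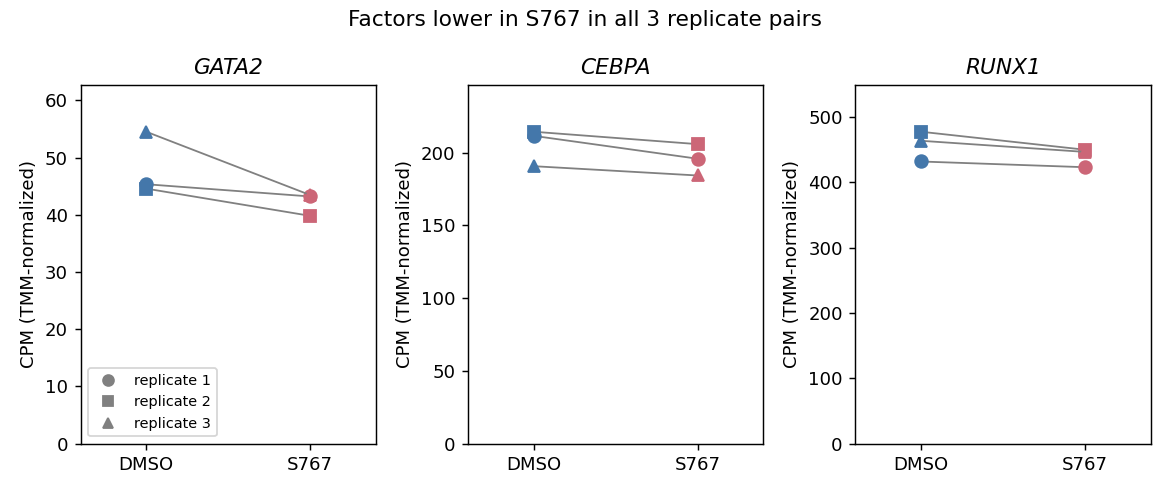
Normalized counts (CPM, axis from 0) of *GATA2*, *CEBPA* and *RUNX1* in DMSO and S767, with lines joining libraries of the same replicate number. Each line falls from left to right, and in relative terms that of *GATA2* in replicate 3, from 54.5 to 43.5 CPM, falls most.

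*CEBPA* (ENSG00000245848.3, chr19:33299934-33302564, minus strand) encodes the basic leucine zipper factor that granulocyte differentiation requires. Its level was 212, 214 and 191 CPM in the DMSO libraries and 196, 206 and 184 CPM in the S767 libraries. The groups overlapped, since DMSO replicate 3 lay below S767 replicates 1 and 2, but the S767 library was lower in each of the 3 pairs. The log2 fold change was -0.07 in both fits, with an unadjusted P of 0.239 without the block (edgeR, SE 0.06, 95% interval -0.21 to 0.06). With the block the unadjusted P was 0.00840 and the adjusted p 0.121 (edgeR, SE 0.02, 95% interval -0.12 to -0.02).

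*RUNX1* (ENSG00000159216.18, chr21:34787801-36004667, minus strand) encodes the DNA-binding subunit of core binding factor. Its level was 432, 478 and 464 CPM in DMSO and 423, 450 and 447 CPM in S767. The S767 library was again lower in each pair while the groups overlapped. The log2 fold change was -0.06 (SE 0.05, 95% interval -0.17 to 0.05, adjusted p = 1.00 with edgeR) without the block. With it, the 95% interval was -0.11 to -0.01 and the adjusted p 0.242 (edgeR), and the adjusted p was 0.0419 without pair 1, 0.781 without pair 2 and 0.467 without pair 3, at log2 fold changes of -0.07, -0.04 and -0.06. Its partner *CBFB*, which stabilizes RUNX1 on DNA, had 78.5 TPM in DMSO and a log2 fold change of -0.06 (SE 0.04) without the block. With the block its 95% interval was -0.11 to -0.01, with an unadjusted P of 0.0226 and an adjusted p of 0.202 (edgeR), and it too was lower in S767 in each of the 3 pairs.

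The start-site windows of these 3 genes are shown because they are the factors that were lower in all 3 pairs. The share of all genes lower in all 3 pairs is not given here. They run from 250 bases before to 50 bases after a RefSeq transcript start (GRCh38.p14), each on the minus strand and printed 5′ to 3′. Windows were found for 8 of the 10 factors, with 2 listed starts for *GATA2* and 1 each for *CEBPA* and *RUNX1*. The *RUNX1* window lies inside the span of the gene given above, away from its upstream end, and no other start of it was examined. Matches on either strand to the core motifs of the factors themselves are in capitals. The motifs are GATAA for GATA factors, TGTGGT for RUNX1, GAGGAA for SPI1, TTGCNNAA for C/EBP factors, the E-box CANNTG for TAL1, TAACNG for MYB, TGACAG for MEIS1 and AAATCA for GFI1. *GATA2* has windows at chr3:128493152-128493451 and chr3:128488481-128488780, *CEBPA* at chr19:33302485-33302784 and *RUNX1* at chr21:34888650-34888949.
GATA2 upstream start: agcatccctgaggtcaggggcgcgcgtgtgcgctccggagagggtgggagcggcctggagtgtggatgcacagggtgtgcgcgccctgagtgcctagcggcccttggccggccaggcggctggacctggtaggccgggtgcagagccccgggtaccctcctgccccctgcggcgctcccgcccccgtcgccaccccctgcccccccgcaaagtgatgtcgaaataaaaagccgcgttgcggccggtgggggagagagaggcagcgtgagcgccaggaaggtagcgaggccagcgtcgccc
GATA2 downstream start: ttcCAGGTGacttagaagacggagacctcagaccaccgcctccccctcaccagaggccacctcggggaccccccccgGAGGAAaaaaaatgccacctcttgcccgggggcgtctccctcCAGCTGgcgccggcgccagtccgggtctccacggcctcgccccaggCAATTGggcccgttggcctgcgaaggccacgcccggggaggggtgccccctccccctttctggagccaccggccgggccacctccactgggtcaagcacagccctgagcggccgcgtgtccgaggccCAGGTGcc
CEBPA: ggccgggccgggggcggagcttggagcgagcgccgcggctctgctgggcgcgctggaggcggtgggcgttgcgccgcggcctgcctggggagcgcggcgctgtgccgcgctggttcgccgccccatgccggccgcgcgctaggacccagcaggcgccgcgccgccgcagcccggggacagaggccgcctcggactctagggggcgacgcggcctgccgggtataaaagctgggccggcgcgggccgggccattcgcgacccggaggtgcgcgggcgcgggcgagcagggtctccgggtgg
RUNX1: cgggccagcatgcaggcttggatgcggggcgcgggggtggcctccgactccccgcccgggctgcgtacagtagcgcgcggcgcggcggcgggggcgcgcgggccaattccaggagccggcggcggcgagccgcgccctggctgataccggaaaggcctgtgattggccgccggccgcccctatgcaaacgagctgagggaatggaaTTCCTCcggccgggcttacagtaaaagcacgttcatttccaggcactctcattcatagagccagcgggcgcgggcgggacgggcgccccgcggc

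The upstream *GATA2* window and the *CEBPA* window held none of the 8 motifs. The downstream *GATA2* window held 4 E-boxes and 1 SPI1 motif, and the *RUNX1* window held 1 SPI1 motif, on the opposite strand. None of these matches overlapped another. Over all 34796 windows of this kind, 68.7% held an E-box and 27.9% the SPI1 motif. Among the 12 windows of the 8 factors, the E-box was in 5, the SPI1 motif in 4, the RUNX1 and C/EBP motifs in 3 each, the GATA, MYB and GFI1 motifs in 1 each, and the MEIS1 motif in 0. The shares over all windows were 13.1% for RUNX1, 10.5% for C/EBP, 22.8% for GATA, 20.8% for MYB, 13.2% for GFI1 and 15.8% for MEIS1. A match is a description of letters in the window, and binding was not measured here.

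*SPI1* (ENSG00000066336.11, chr11:47354860-47378576, minus strand), the ETS factor that directs monocyte and granulocyte fate, had 239, 218 and 198 CPM in DMSO and 233, 227 and 202 CPM in S767. The levels of both groups covered nearly the same range and were highest in replicate 1 and lowest in replicate 3 in both. The log2 fold change was 0.02 (SE 0.08, 95% interval -0.16 to 0.19), and with the block its 95% interval was -0.04 to 0.07, or -2.51 to 5.07% on the linear scale.

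*GFI1* (ENSG00000162676.12, chr1:92474762-92486876, minus strand) had 296, 316 and 274 CPM in DMSO and 295, 330 and 286 CPM in S767. The groups overlapped, and replicate 2 was highest in both. Its log2 fold change was 0.04 (SE 0.07, 95% interval -0.11 to 0.19), and the block interval ran from -0.83 to 6.56%.

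*MYB* (ENSG00000118513.19, chr6:135181315-135219173, plus strand), a factor of progenitor proliferation, had 492, 479 and 538 CPM in DMSO and 487, 482 and 530 CPM in S767. The log2 ratios of the 3 pairs were -0.01, 0.01 and -0.02, and replicate 3 was highest in both groups. The log2 fold change was -0.01 (SE 0.06, 95% interval -0.14 to 0.12), with a block interval of -3.95 to 2.90%.

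*HOXA9* (ENSG00000078399.18, chr7:27162435-27175180, minus strand) had 15.6, 16.2 and 14.02 CPM in DMSO and 15.4, 16.4 and 15.2 CPM in S767. The libraries overlapped, and the log2 fold change was 0.04 (SE 0.07, 95% interval -0.12 to 0.20). *MEIS1* (ENSG00000143995.20, chr2:66433452-66573869, plus strand), its TALE homeodomain cofactor, had 4.19, 3.996 and 4.51 CPM in DMSO and 4.31, 4.01 and 4.24 CPM in S767. It was the least precise of the 10, with 594 to 1166 counts per library and a log2 fold change of -0.02 (SE 0.09, 95% interval -0.22 to 0.19).

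*LMO2* (ENSG00000135363.12, chr11:33858576-33892289, minus strand) is a LIM protein that does not bind DNA and bridges TAL1 to GATA factors. It had 139, 148 and 138 CPM in DMSO and 140, 148 and 142 CPM in S767, the narrowest spread of the 10 over replicate numbers. The log2 fold change was 0.01 (SE 0.04, 95% interval -0.08 to 0.11). *TAL1* (ENSG00000162367.11, chr1:47216290-47232220, minus strand), the basic helix-loop-helix factor of that complex, had 17.9, 17.9 and 17.5 CPM in DMSO and 19.5, 18.4 and 17.2 CPM in S767. The S767 libraries lay on both sides of the DMSO libraries, and the log2 fold change was 0.05 (SE 0.06, 95% interval -0.09 to 0.19). For the 7 factors other than *GATA2*, *CEBPA* and *RUNX1*, the adjusted p of edgeR was 1.00 without the block and between 0.447 and 0.940 with it.

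The levels of the 10 factors also varied over replicate numbers. The range of the 3 replicate means, over both treatments, ran from 0.08 for *LMO2* to 0.24 for *SPI1* on the log2 CPM scale. The factors did not share 1 order. *SPI1* and *TAL1* were highest in replicate 1, *CEBPA*, *RUNX1*, *HOXA9*, *GFI1* and *LMO2* in replicate 2, and *GATA2*, *MYB* and *MEIS1* in replicate 3, by the mean of both treatments.

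**Figure D4:**
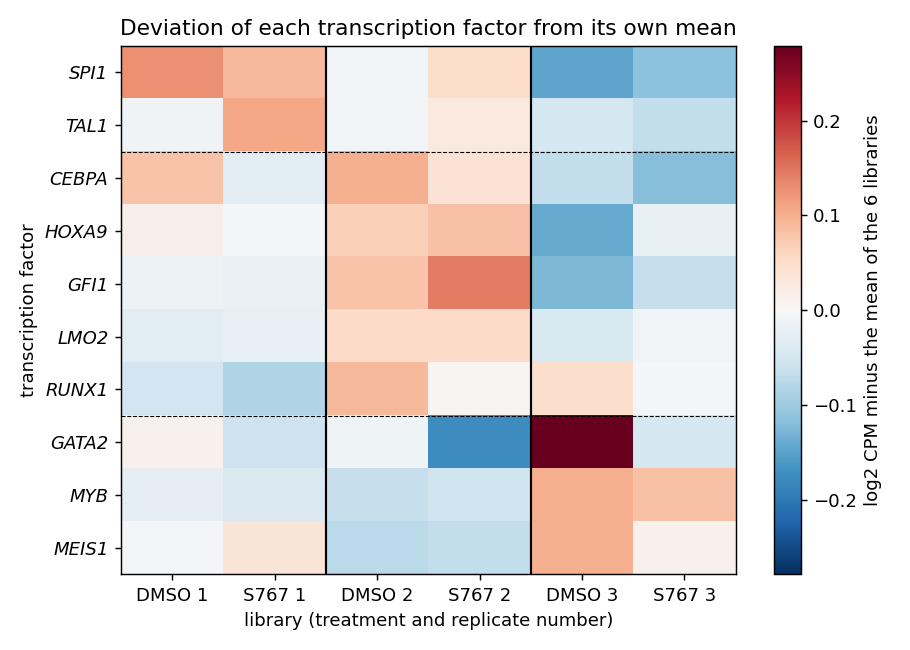
Deviation of log2 CPM from the mean of the 6 libraries, for each factor (lines of the map) and each library (columns, paired by replicate number). Red is higher and blue lower, and dashed lines part the factors by the replicate number in which they were highest. The largest deviation, 0.28, is that of *GATA2* in DMSO replicate 3.

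Across the 6 libraries *HOXA9* and *GFI1* varied together (Pearson r = 0.92), as did *GFI1* and *LMO2* (r = 0.90), whereas *MEIS1* varied opposite to *HOXA9* (r = -0.96) and *GFI1* (r = -0.93). These values describe 6 libraries that share treatment and replicate number. Over the same libraries, the gene with the most similar pattern was *STK25* for *SPI1*, *RNF126* for *CEBPA*, *TRIM33* for *RUNX1*, *LRRC58* for *GATA2* and *PTPRC* for *MYB*. It was *FCGR2A* for *MEIS1*, *MT-ND3* for *HOXA9*, *BMF* for *GFI1*, *ARL11* for *LMO2* and *REV1* for *TAL1*. The r of these nearest genes lay between 0.984 and 0.997, with 6190 or 6191 candidate genes for each. Each is the highest r of that search over 6 libraries, so its size reflects the selection. Whether any of these genes is regulated with the factor was not tested.

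Partners of these factors were expressed at levels that differed by class. The counts of calls below stand beside 3.53% of all genes with an unadjusted P under 0.05 without the block and 3.23% with an adjusted p under 0.05 with it, so that 0 calls in a short list is close to the background share. *LYL1*, the closest relative of *TAL1*, had 333 TPM in DMSO and a log2 fold change of 0.01 (SE 0.04), while *FLI1* had 87.8 TPM and *ERG* 6.67 TPM, and none of these 3 passed a test. Of 11 genes of the TAL1-LMO2 complex and its E-protein partners, all were tested and none had an unadjusted P under 0.05 without the block or an adjusted p under 0.05 with it. With the block, 2 of the 11 had an unadjusted P under 0.05 with a higher level, where 9.38% of all genes did. They were *SSBP2* (adjusted p = 0.186 with edgeR) and *TCF12* (adjusted p = 0.233 with edgeR). The groups of *TCF12* did not overlap, a separation in the higher direction found for 5.12% of all genes tested. The highest of the list were *LYL1*, *SSBP4* at 201 TPM and *TCF3* at 188 TPM. Among *GATA1*, *GATA2* and *GATA3*, the GATA factors looked at here, *GATA2* stood nearly alone. *GATA1* had 0 counts in each library, *GATA3* had 5 counts in 1 library and 0 in the others, and the cofactors *ZFPM1* and *ZFPM2* had 2.80 and 0.04 TPM. Of 6 RUNX and CBF factors, 5 were tested and none passed those limits, with *RUNX3* at 23.7 TPM and *CBFA2T3* at 23.0 TPM. *RUNX1T1* was listed at 0 counts. With the block, 2 of the 5 had an unadjusted P under 0.05 with a lower level, where 7.39% of all genes did. They were *CBFB*, given above, and *RUNX2* (adjusted p = 0.192 with edgeR), which was lower in each of the 3 pairs. None of 5 tested GFI1 corepressors (*HDAC2* 225 TPM, *HDAC1* 124 TPM, *KDM1A* 108 TPM) and none of 4 MYB family members and coactivators (*MYBL2* 118 TPM, *EP300* 28.7 TPM, *CREBBP* 17.6 TPM) passed either. Among these, *MYBL2* alone had an unadjusted P under 0.05 with the block (adjusted p = 0.0730 with edgeR), and it was higher in each of the 3 pairs.

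Single members of the remaining families did pass with the block (edgeR, adjusted p over all genes), a test passed by 3.23% of all genes, 1.08% with a lower and 2.16% with a higher level in S767. *CEBPE*, a C/EBP factor of late granulocyte maturation, fell by 0.13 on the log2 scale (SE 0.03, adjusted p = 0.0273), the 1 call among 5 relatives of *CEBPA*. The others included *CEBPD* at 131 TPM, *CEBPG* at 39.5 TPM and *CEBPB* at 31.8 TPM, the last with an unadjusted P of 0.0356 and an adjusted p of 0.253 with the block (edgeR), lower in S767. *JUN*, a coactivator of SPI1, fell by 0.22 (SE 0.05, adjusted p = 0.0247), the 1 call among 4 tested SPI relatives and partners, which were led by *IRF8* at 113 TPM and also held *SPIB* at 1.18 TPM. *HOXA7* rose by 0.26 (SE 0.06, adjusted p = 0.0306), the 1 call among 14 tested HOX, MEIS and PBX genes, with library values of 3.33, 3.81 and 3.79 TPM in DMSO and 4.26, 4.45 and 3.98 TPM in S767. Its groups did not overlap, in a direction shared by 5.12% of all genes. Without the block its log2 fold change was 0.26 with edgeR, 0.41 on counts without regard to strand (unadjusted P = 0.0792) and 0.17 on log2(TPM + 1). The most abundant genes of that list were *PBX2* at 45.4 TPM, *HOXB4* at 22.1 TPM and *HOXA10* at 15.4 TPM.

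Among 17 tested other myeloid and stem cell factors, 4 fell and 1 rose with the block, beside 1.08% and 2.16% of all genes. At an unadjusted P under 0.05 with the block, 6 were lower and 2 higher, beside 7.39% and 9.38%. *EGR1* and *EGR2*, immediate-early zinc finger factors of monocyte differentiation, fell by 1.03 (SE 0.20, adjusted p = 0.0161) and 1.64 (SE 0.35, adjusted p = 0.0279) on the log2 scale with edgeR. *EGR1* had 5.19, 14.4 and 11.3 CPM in DMSO and 4.95, 5.09 and 3.99 CPM in S767, so that DMSO replicates 2 and 3 stood apart from the other 4 libraries. *EGR2* was low, at 0.06, 1.08 and 0.59 TPM in DMSO and 0.15, 0.19 and 0.21 TPM in S767, and DMSO replicate 1 lay below all S767 libraries. Without the block, the log2 fold change of *EGR2* was -1.91 with edgeR, -1.21 with limma-voom, -0.85 on log2(TPM + 0.1) and -0.36 on log2(TPM + 1), scales on which a pseudocount shrinks the changes of low genes. *KLF2* fell by 0.58 (adjusted p = 0.00838) and *BCL6* by 0.21 (adjusted p = 0.0381), whereas *ID2*, an inhibitor of E proteins, rose by 0.28 (adjusted p = 0.0160). The most abundant of the list, *MYC* at 513 TPM, *ZEB2* at 113 TPM and *HHEX* at 90.1 TPM, were not called. Of 18 tested genes taken as targets of these factors, *CSF3R*, the G-CSF receptor, rose by 0.13 (adjusted p = 0.0163), *CD33* rose by 0.11 (adjusted p = 0.0241) and *CEBPE* fell, while *LYZ* at 368 TPM was not called. At an unadjusted P under 0.05 with the block, 5 of these 18 were lower and 3 higher. Of 7 tested myeloid markers, 2 were lower and 1 higher at that limit, beside 7.39% and 9.38% of all genes. With the block, 1 of the 7 had an adjusted p under 0.05 (edgeR), higher in S767. It was *CD33*, which is also on the list of targets and is the same call as above.

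Without the block, edgeR gave none of these 10 genes an adjusted p under 0.05, and *EGR1*, *EGR2*, *HOXA7* and *CSF3R* had an unadjusted P under 0.05. Without pair 2, where 24 of all genes were called, the block gave adjusted p-values of 0.232 to 0.549 for all 10 (edgeR). The log2 fold changes in that fit were -0.15 for *CEBPE*, -0.15 for *JUN*, 0.24 for *HOXA7*, -0.79 for *EGR1*, -1.09 for *EGR2*, -0.44 for *KLF2*, -0.19 for *BCL6*, 0.18 for *ID2*, 0.15 for *CSF3R* and 0.10 for *CD33*. Single libraries moved the log2 fold changes without the block, toward 0 and away from it. Without DMSO replicate 1 that of *CEBPE* went from -0.14 to -0.0047. Without DMSO replicate 2 it went from -0.61 to -0.24 for *KLF2*, from 0.11 to 0.04 for *CD33*, from -0.21 to -0.13 for *BCL6* and from -1.91 to -1.12 for *EGR2*. Without S767 replicate 2 it went from -0.21 to -0.03 for *JUN*, from -0.14 to -0.01 for *CEBPE* and from 0.31 to -0.05 for *ID2*, and without S767 replicate 1 from 0.13 to 0.08 for *CSF3R* and from 0.11 to 0.05 for *CD33*. Without DMSO replicate 3 it was -0.13 for *JUN* and 0.13 for *ID2*, and without S767 replicate 3 it was -0.39 for *KLF2*. Away from 0, *CEBPE* went to -0.27, *JUN* to -0.33 and *ID2* to 0.53 without DMSO replicate 2, and *BCL6* to -0.33 without DMSO replicate 1. *CEBPE* went to -0.26 and *JUN* to -0.36 without S767 replicate 1, *CD33* to 0.18 without S767 replicate 2 and *ID2* to 0.51 without S767 replicate 3. With the block and without pair 3, *CEBPE* (adjusted p = 0.0525) and *BCL6* (adjusted p = 0.0796) were not called. DESeq2 with the block did not call *KLF2* (adjusted p = 0.0510), *EGR1* (adjusted p = 0.192) or *ID2* (adjusted p = 0.128) and gave no adjusted p for *EGR2*. On RSEM expected counts with the block, *KLF2*, *ID2*, *CSF3R* and *CD33* were called, and the other 6 were not (adjusted p of 0.0538 to 0.107 with edgeR).

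Factors of other lineages differed in level. Of 5 erythroid and megakaryocyte factors 2 were tested, *FLI1* (87.8 TPM) and *NFE2* (13.9 TPM), with no call, and *KLF1* and *GFI1B* were below 0.05 TPM on average in DMSO. The 10 lymphoid factors summed to 0.40 to 0.57 TPM over the 6 libraries, led by *BCL11B* at 0.21 TPM, *EOMES* at 0.09 TPM and *FOXP3* at 0.06 TPM, with 5 tested and no call. Of 14 transcripts that share a locus with one of the 10 factors, 11 were found and 4 were tested, among them *HOXA10-AS* at 8.34 TPM and *CEBPA-DT* at 4.20 TPM, and none was called. *HOXA-AS2*, at 0.08 TPM, was not tested.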

How the data were processed

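RNA of OCI-AML5 cells was sequenced in 3 DMSO and 3 S767 libraries, grouped and numbered by their labels. The authors aligned reads with STAR and quantified genes with RSEM. The submitters' processing notes name STAR 2.7.1a, RSEM 1.2.28 and GRCh38, whereas the paper's methods name another RSEM version, and the annotation release is not given in the sources used here. The deposited count tables hold whole, unnormalized counts per gene, and the strand-specific column was used. Their 4 summary lines, 20.3% of all fragments, belong to no gene and were not used. The deposited RSEM tables hold expected counts, rounded here to whole numbers, and TPM, which the authors' RSEM scaled to 1 total per library. Symbols were found for 60340 of 60609 genes, and positions are those of GENCODE 29.

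Counts were normalized with TMM and filtered with filterByExpr (minimum count 10). The treatments were compared in edgeR 4.0.16 (R 4.3.3, quasi-likelihood test) with Benjamini-Hochberg adjustment over 20725 genes. Log2 CPM used a prior count of 2. The study names limma-voom, which was run as an alternative (limma 3.58.1), with DESeq2 1.42.0, other scalings and filters, RSEM counts, log2(TPM + 1) and log2(TPM + 0.1), and each library left out. The edgeR fits without and with the block were tested on simulated data with 200 genes changed, in which the fit with the block made more false calls than its nominal limit. Replicate numbers paired the libraries. Over 6191 genes, deviations from the group means had correlations of 0.78, 0.87 and 0.75 in the 3 pairs of equal number, whereas all pairs of unequal number had negative ones. Deviations from a group mean sum to 0, so negative values on balance follow from the positive ones and are not separate support for the pairing. No source says what a number shares.

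The members and lists were chosen with earlier results of these data known. All 10 factors are named. Of each list, genes are named that had an unadjusted P under 0.05 without the block or an adjusted p under 0.05 with it, with the 3 highest by mean TPM in DMSO, and other list genes that are named were chosen after their values were seen. One marker is not reported here. Similar patterns are the highest Pearson r among genes with a mean log2 CPM above 5. For them that limit gave 6191 genes, with the factor itself left out where it was among them. For the median size of change it gave 6203 genes, and the difference between these counts was not examined.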

Additional observations from a re-analysis of the deposited data

How the results depend on the processing

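Alternatives moved the sign of 6 factors and the call of *GATA2* and *RUNX1*, while no log2 fold change of the 10 went beyond -0.250 or 0.0914. The replicate block made *GATA2* pass an adjusted p of 0.05 in edgeR (-0.19, adjusted p = 0.0258), limma-voom (-0.19, adjusted p = 0.0333) and DESeq2 (-0.19, adjusted p = 0.00241), and the number of factors called was 1 in each. Under 11 further alternatives that used every library it was not called, at log2 fold changes down to -0.24. With an unadjusted P under 0.05 there were 3 factors in each of the 4 fits with the block (those 3 and RSEM expected counts) and 0 on both log2 TPM scales. The shares of all genes in the fits with the block were 16.8% (edgeR), 16.5% (limma-voom), 10.2% (DESeq2) and 17.6% (RSEM expected counts). On log2(TPM + 1) and log2(TPM + 0.1) they were 5.12% and 5.20%. Leaving out each library in turn, without the block, gave log2 fold changes of -0.244 to -0.0929 for *GATA2*, -0.0507 to 0.0876 for *SPI1*, -0.0539 to 0.0416 for *MYB*, -0.0548 to 0.0322 for *MEIS1*, -0.0217 to 0.0799 for *HOXA9*, -0.0233 to 0.0914 for *GFI1* and -0.0080 to 0.0460 for *LMO2*, so that the sign of the last 6 depended on the library left out. *CEBPA* stayed below 0 (-0.125 to -0.0338), as did *RUNX1* (-0.0967 to -0.0254), and *TAL1* stayed above it (0.0035 to 0.0909). Leaving out each pair, with the replicate block, gave -0.250 to -0.117 for *GATA2*, -0.0705 to -0.0439 for *RUNX1*, -0.0046 to 0.0447 for *SPI1*, -0.0453 to 0.0217 for *MEIS1* and -0.0050 to 0.0690 for *HOXA9*. Across both kinds of left-out fit, 0 to 2 factors passed an adjusted p of 0.05 and 0 to 4 had an unadjusted P under 0.05. The most, 2 and 4, came with the block and without pair 1. In that fit 2034 of 20629 genes passed and 21.1% had an unadjusted P under 0.05. Without pair 2 or pair 3, 2 factors had such a P, beside 8.94% and 13.4% of all genes. With a library left out, the share of all genes ran from 2.53 to 4.91%. The median log2 fold change of the 10 was -0.0162 to -0.00189 with a library left out and -0.0119 to 3.04e-06 with a pair left out. The sign also changed for *MEIS1* on RSEM expected counts (0.0159, and 0.0169 with the block) and for *LMO2* on RSEM expected counts (-0.0032, and -0.0029 with the block), log2(TPM + 1) (-0.0047) and log2(TPM + 0.1) (-0.0048), where the cause was not tested. Leaving out a library moved the log2 fold change of *ID2* as low as -0.0464 and as high as 0.531.

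Over all genes, calls at an adjusted p of 0.05 numbered 1 in edgeR, 25 in DESeq2, 9 with no limit on low counts, 0 on both log2 TPM scales and 2 without DMSO replicate 1. With the replicate block they numbered 670 in edgeR, 609 in limma-voom, 630 in DESeq2 and 394 on RSEM expected counts, and 2034, 24 and 636 without pair 1, 2 and 3. Other scalings of the counts moved the median of all genes by less than 0.01. Depth limited only the low genes, since *MEIS1* had as few as 594 counts in a library and an SE from counting alone of 0.04 on the log2 scale. With 3 libraries per group, the exact permutation test allows no p-value below 0.1.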

Other observations

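Counting without regard to strand changed some of these genes far more than S767 did. The count of *CEBPA* without regard to strand was 30.9 to 32.7% of its strand-specific count, that of *MYB* 90.2 to 91.2% and that of *MEIS1* 87.2 to 91.9%, while the other 7 factors had 98.4 to 101%. In GENCODE 29, 25.0% and 18.3% of the *CEBPA* exon bases overlap the antisense genes *AC008738.3* and *AC008738.5*.

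*CSF2RA*, a receptor chain for the GM-CSF in the medium, was listed at 0 strand-specific counts in each library. It lies in the pseudoautosomal region, with a copy on X and one on Y that are both listed. Reads that fit both copies cannot be placed in 1 gene, and whether this gave the 0 counts was not tested. RSEM, which shares such reads out, gave the X copy 3.07 TPM in DMSO and 3.59 TPM in S767 on average. With 0 strand-specific counts, *CSF2RA* was not among the genes tested. *CSF2RB*, the shared chain, had 12.2 TPM in DMSO and 12.6 TPM in S767.

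A stem cell marker and a granule gene followed the replicate numbers in the same way under both treatments. *CD34* had 0.68, 1.32 and 2.65 TPM in DMSO replicates 1, 2 and 3 and 0.61, 1.01 and 2.31 TPM in the S767 replicates. *MPO*, a granule enzyme of myeloid cells, had 26.6, 17.1 and 13.4 TPM in DMSO and 24.9, 16.2 and 12.6 TPM in S767, highest in replicate 1, where *CD34* was lowest. Both had a lower TPM in S767 than in DMSO at each replicate number. Both were chosen after their values were seen.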
